A study of Mus musculus with 8 samples.

Results

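The pallium is the dorsal part of the embryonic telencephalon, from which the cerebral cortex and hippocampus arise. Levels of 8 transcription factors of the pallium and cortex (*Emx1*, *Emx2*, *Lhx2*, *Eomes*, *Tbr1*, *Neurod6*, *Fezf2* and *Bcl11b*) were examined in newborn mouse brains after maternal cadmium (Cd) exposure. They were chosen by name as known regulators of this part of the brain, with earlier results of these data known. Each symbol matched 1 of the 49585 genes of the count table. Genes were tested if no more than 5 of the 8 libraries had 0 reads, which left 23113 genes, and all 8 factors passed, with reads in every library.

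The samples were whole brains of 8 female F1 pups from C57BL/6J mothers and CAST/EiJ fathers, called B × C, collected at postnatal day 1. Of these, 4 pups came from control mothers given 0 ppm Cd and 4 from mothers given 50 ppm Cd as CdCl2 in drinking water, before and during gestation, and every pup came from its own litter. All pups of both doses share the hybrid genotype and sex, so nothing here speaks for males or for the reciprocal cross. Poly(A) RNA from a portion of each pulverized brain was sequenced, and 22916434 to 30708087 reads fell on genes in each library. Values are CPM, the reads of a gene relative to all reads on genes of its library, scaled by TMM, a normalization that takes most genes as equal between libraries. Replicate numbers within a dose follow the order of the sample records and link no pup of one dose to a pup of the other.

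Transcription factors of this group act one after another as a cortical neuron is made. Homeodomain proteins such as Emx1, Emx2 and Lhx2 give dorsal progenitors their regional identity, Eomes marks the intermediate progenitors that divide in the subventricular zone, Tbr1 and Neurod6 are switched on as cells become glutamatergic neurons, and Fezf2 and Bcl11b direct deep-layer neurons to send axons to the brainstem and spinal cord. At birth most deep-layer neurons of the mouse cortex are in place, while upper-layer neurons are still arriving.

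No member was called different between doses once p-values were adjusted over all genes. By edgeR's quasi-likelihood F test with p-values adjusted after Benjamini and Hochberg, 0 of 8 members passed an adjusted p of 0.05, where 0.0173% of all genes tested did, and DESeq2 also called 0. The edgeR adjusted p was 0.999 for each of the 8 members. At an unadjusted p under 0.05, 3 of 8 members (*Eomes*, *Bcl11b* and *Emx2*) were lower at 50 ppm and none was higher, beside 1.44% of all genes lower and 2.31% higher. When a gene needed 10 or more reads in 4 or more brains, the count was again 3 of 8, beside 1.25% of such genes. The fitted log2 fold change of 50 ppm over 0 ppm was negative for 7 members and positive for *Emx1*, with a median of -0.17, beside -0.0033 over all genes tested. In 0 of 8 members did all exposed brains lie below all control brains, a separation met by 0.904% of all genes. In whole-brain RNA, fewer cells of a type and less RNA per cell cannot be told apart.

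The control libraries were not alike in the level of hindbrain and cord genes, which is given here beside the members. A list of 9 brainstem and spinal cord genes, of which 8 were tested and *Slc18a3* was listed at 0, summed to 6.59 CPM in 0 ppm replicate 1 and 15.3 CPM in 0 ppm replicate 2. The other control brains stood at 50.2 and 47.7 CPM (replicates 3 and 4), and the exposed brains at 107, 64.1, 44.8 and 59.6 CPM (replicates 1 to 4). The mean log2 CPM of the same genes was -1.53, 0.36, 1.77 and 1.54 in the controls and 2.66, 2.07, 1.82 and 2.08 in the exposed brains, so that on this scale every exposed brain lay above every control brain. The gap was small, from 1.77 in 0 ppm replicate 3 to 1.82 in 50 ppm replicate 3, and the summed CPM of the doses overlapped. Dose and this score were therefore linked over the 8 libraries, and a fit with both can separate them only in part. Of the 8 genes tested, 6 were higher at 50 ppm at an unadjusted p under 0.05, beside 2.31% of all genes, and none lower. Their median log2 fold change was 1.37. Those with the smallest p were *Glra1*, a glycine receptor subunit (log2 fold change 1.42), *Lbx1*, a homeobox gene of dorsal hindbrain and cord neurons (1.78), and *Phox2a*, a homeobox gene of cranial motor and noradrenergic neurons (1.41). A list of *Hox* genes, which mark the hindbrain and cord, summed to 0.03 CPM in 0 ppm replicate 1 and 0.52 CPM in replicate 2, against 14.3 and 27.9 CPM in the other controls and 24.7 to 115 CPM in the exposed brains.

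The same 2 control libraries were high in several pallial factors. Summed over the 8 members, the controls held 878, 829, 593 and 698 CPM (replicates 1 to 4) and the exposed brains 606, 645, 710 and 702 CPM. The 2 controls with the lowest hindbrain and cord genes thus had the highest sums, and 0 ppm replicate 3 had the lowest of all 8 brains. Replicate 1 of 0 ppm was the highest of all 8 libraries in 5 members, and replicate 3 of 0 ppm the lowest in 5. Among exposed brains, replicate 3 was highest in 7 members and replicate 1 lowest in 5. Results are therefore given with all libraries, with the brainstem and cord score as a covariate, and without 0 ppm replicates 1 and 2, the last of these chosen after the values had been seen.

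**Figure D1:**
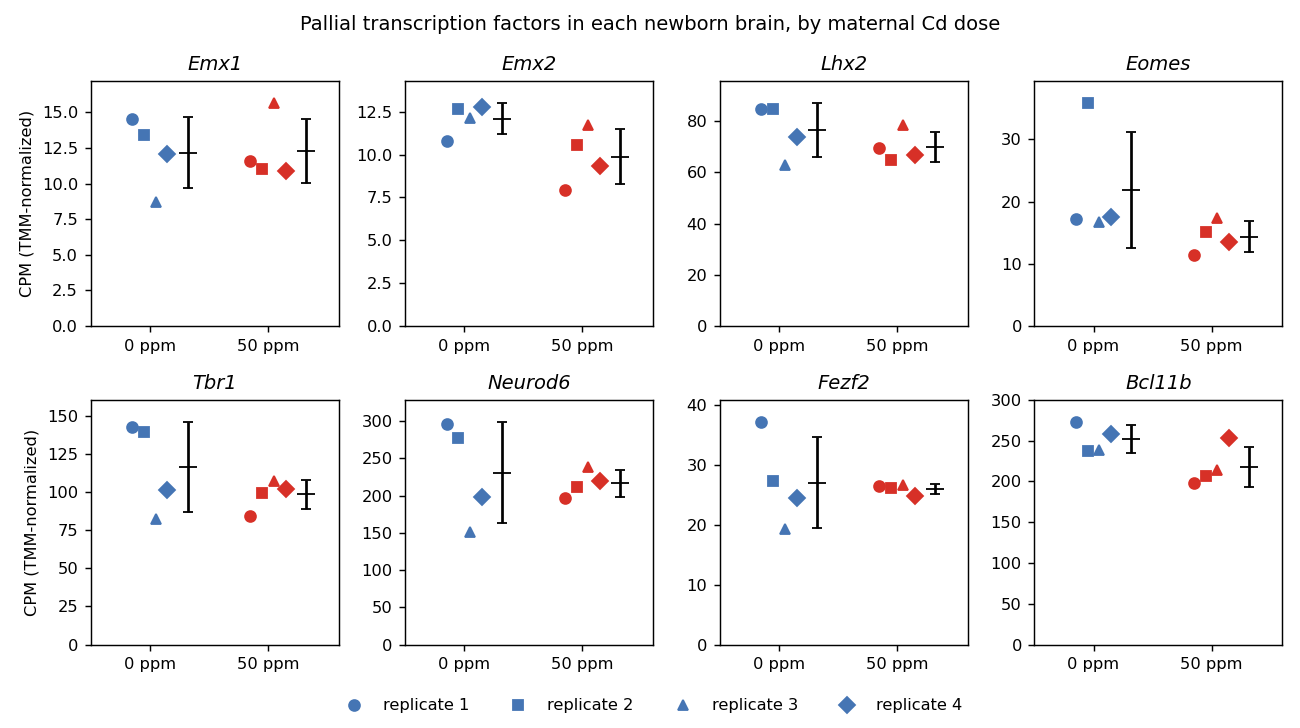
TMM-normalized CPM of each of the 8 transcription factors (y axis, from 0) in each newborn brain at 0 ppm (blue) and 50 ppm (red), where symbol shape gives the replicate number and the black mark and bar beside each dose give the mean and SD of 4 brains. Ranges of the doses overlap in every panel, and for *Emx2*, *Eomes* and *Bcl11b* 3 of 4 exposed brains sit below the lowest control.

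The order of levels was read from CPM per kb of exon length at 0 ppm, since longer transcripts collect more reads. *Neurod6* was the most abundant at 107 ± 31.7 CPM per kb (SD, n = 4), followed by *Bcl11b* at 31.1 ± 2.11 CPM per kb and *Tbr1* at 21.3 ± 5.39 CPM per kb. *Lhx2* came next at 17.4 ± 2.38 CPM per kb, and its range overlapped that of *Tbr1*, although *Tbr1* was the higher of the 2 in 4 of 4 control brains. *Fezf2* stood at 8.87 ± 2.47 CPM per kb, *Emx1* at 5.57 ± 1.15, *Eomes* at 5.25 ± 2.25 and *Emx2* at 4.02 ± 0.30 CPM per kb. Neighbours among these last 4 overlapped in range, and *Emx1* exceeded *Eomes* in only 2 of 4 control brains. *Neurod6*, *Bcl11b* and *Tbr1*, genes of postmitotic neurons, thus led this list in newborn whole brain. The progenitor gene *Lhx2* stood above *Fezf2*, and *Emx1*, *Eomes* and *Emx2* closed the list.

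*Eomes*, the T-box factor of intermediate progenitors (GRCm38 chr9:118478212-118486132, plus strand), had the largest fitted difference of the 8 with all libraries. It measured 17.2, 35.8, 16.7 and 17.5 CPM in the control brains and 11.5, 15.0, 17.4 and 13.5 CPM in the exposed brains. One control, 0 ppm replicate 2, was far above every other brain, 3 exposed brains lay below the lowest control, and 50 ppm replicate 3 lay inside the control range. The means were 21.8 ± 9.34 CPM at 0 ppm and 14.3 ± 2.50 CPM at 50 ppm, with a log2 fold change of -0.60 (SE 0.20) and an unadjusted edgeR p of 0.00815. The exact two-sided permutation test gave p = 0.0857, where 0.0286 is the smallest that 4 against 4 can give. Leaving out 0 ppm replicate 2 reduced the log2 fold change to -0.26 and took the unadjusted edgeR p to 0.0655, so a large part of this difference rests on that library. *Emx2* then stood at -0.27, so *Eomes* no longer ranked first without that library, nor without both 0 ppm replicates 1 and 2. About 2.84% of its exon length overlaps *Gm33460* on the opposite strand, and reads there are uncertain because the strand setting of the count is not given in the sources used here.

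The 250 bases upstream of the RefSeq starts of *Eomes*, the member with the largest difference over all libraries, and *Neurod6*, the most abundant member, are given as reference sequence (GRCm38.p6, 5′ to 3′ on the strand of the gene). Both windows lie outside annotated exons, at chr9:118477939-118478188 on the plus strand for *Eomes* and at chr6:55681264-55681513 on the minus strand for *Neurod6*.
Eomes: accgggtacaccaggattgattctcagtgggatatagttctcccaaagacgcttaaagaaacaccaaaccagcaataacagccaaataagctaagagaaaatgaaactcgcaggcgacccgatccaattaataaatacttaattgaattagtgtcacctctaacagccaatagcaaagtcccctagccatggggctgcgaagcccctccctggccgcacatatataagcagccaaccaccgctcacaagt
Neurod6: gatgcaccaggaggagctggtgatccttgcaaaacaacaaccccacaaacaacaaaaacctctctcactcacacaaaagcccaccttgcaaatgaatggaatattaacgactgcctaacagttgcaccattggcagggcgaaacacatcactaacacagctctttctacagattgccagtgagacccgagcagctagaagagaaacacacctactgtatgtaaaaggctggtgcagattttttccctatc

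The *Eomes* window holds 46.4% G and C with 8 CpG, and the *Neurod6* window 46.0% with 3 CpG, beside medians of 52.4% and 6 CpG over 32851 mouse promoters of the same length. All 8 members had at least 1 window and *Lhx2* had 2, giving 9 windows that ranged from 44.8% (*Bcl11b*) to 75.6% G and C (*Emx1*, with 30 CpG). Both strands were searched for the homeodomain core TAATTA, the E-box CAGATG read by proneural factors, and the T-box element GGTGTGA, none of which contains another. TAATTA was in 1 of 9 member windows, that of *Tbr1*, beside 4.84% of all promoters. That window lies wholly within annotated exons, as do those of *Emx1* and *Emx2* and 1 of the 2 of *Lhx2*. The windows of *Bcl11b* and *Fezf2* lie partly within exons, by 188 and 94 bases. CAGATG and GGTGTGA were in 0 of 9, beside 14.4% and 3.33% of all promoters, which says only that these letters are not in these windows.

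*Emx2*, a homeobox gene that patterns cortical areas and is needed for the hippocampus (chr19:59458372-59465357, plus strand), was the other progenitor factor that was lower at an unadjusted p. Control brains measured 10.8, 12.6, 12.1 and 12.8 CPM and exposed brains 7.93, 10.5, 11.7 and 9.35 CPM. Controls sat within a narrow range, and 3 of 4 exposed brains fell below it, the exception again being 50 ppm replicate 3. Mean levels were 12.1 ± 0.91 CPM at 0 ppm and 9.88 ± 1.62 CPM at 50 ppm, a log2 fold change of -0.29 (SE 0.13) with an unadjusted edgeR p of 0.0391 and an exact permutation p of 0.0571. In contrast to most members it was not raised in 0 ppm replicate 1, where it was lowest among the controls. About 8.79% of its exon length overlaps its antisense gene *Emx2os*, and those reads cannot be assigned without knowing the strand setting. Without 50 ppm replicate 1 the log2 fold change was -0.19 and the unadjusted edgeR p 0.150.

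*Emx1*, the related homeobox gene of dorsal progenitors and young pyramidal neurons (chr6:85187438-85204462, plus strand), had nearly equal means at both doses when all libraries were used. Levels were 14.5, 13.4, 8.72 and 12.04 CPM in control brains and 11.6, 11.0, 15.6 and 10.9 CPM in exposed brains. The highest and the lowest of all 8 brains were 50 ppm replicate 3 and 0 ppm replicate 3. The means of 12.2 ± 2.52 and 12.3 ± 2.25 CPM gave a log2 fold change of 0.01 (SE 0.16), with a 95% interval of -0.31 to 0.34, so that differences within these limits are not excluded. It was 0.32 with the covariate and 0.24 without 0 ppm replicates 1 and 2, at unadjusted edgeR p of 0.0938 and 0.165. The ratio of *Emx2* to *Emx1* reads was 1.03 ± 0.27 at 0 ppm and 0.812 ± 0.120 at 50 ppm, which overlapped (exact permutation p = 0.229).

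*Lhx2*, a LIM-homeodomain gene that keeps progenitors cortical and holds back the cortical hem (chr2:38339281-38369733, plus strand), was lower at 50 ppm by less than its spread. It stood at 84.8, 84.6, 62.8 and 73.7 CPM in control brains and 69.4, 64.8, 78.5 and 66.9 CPM in exposed brains. Both 0 ppm replicates 1 and 2 were above every exposed brain, and 0 ppm replicate 3 was below all of them. The log2 fold change was -0.13 (SE 0.09, exact permutation p = 0.343) over means of 76.5 ± 10.5 and 69.9 ± 6.02 CPM.

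*Tbr1*, a T-box gene of early-born neurons of the deep cortex (chr2:61802930-61814114, plus strand), showed the split among controls clearly. Its levels were 143, 140, 82.8 and 101 CPM in control brains and 84.8, 99.8, 108 and 102 CPM in exposed brains. All exposed brains lay below 0 ppm replicates 1 and 2 and above 0 ppm replicate 3. Means were 117 ± 29.6 and 98.7 ± 9.82 CPM, and the log2 fold change was -0.24 (SE 0.13) with an unadjusted edgeR p of 0.0826 and an exact permutation p of 0.371. The ratio of *Eomes* to *Tbr1* reads was 0.187 ± 0.056 at 0 ppm and 0.145 ± 0.014 at 50 ppm, and the exact permutation p was 0.257. Whether it follows the ratio of any cell types was not tested.

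*Neurod6*, a basic helix-loop-helix gene of postmitotic pyramidal neurons (chr6:55677822-55681263, minus strand), had the widest range in CPM. Control brains measured 297, 278, 152 and 198 CPM and exposed brains 196, 211, 239 and 220 CPM. Here too every exposed brain lay below 0 ppm replicates 1 and 2 and above 0 ppm replicate 3. The spread was 29.5% of the mean among controls and 8.22% among exposed brains, and the means of 231 ± 68.2 and 216 ± 17.8 CPM gave a log2 fold change of -0.09 (SE 0.15, exact permutation p = 0.886).

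*Fezf2*, a zinc finger gene that specifies corticospinal and other subcerebral neurons (chr14:12342094-12348189, minus strand), varied most between the doses in its spread and little in its mean. Levels were 37.2, 27.3, 19.2 and 24.4 CPM in control brains and 26.5, 26.2, 26.6 and 24.8 CPM in exposed brains. The exposed brains were close to one another, with a spread of 3.20% of their mean, and the controls ranged on both sides with a spread of 27.9%. Means were 27.0 ± 7.54 and 26.0 ± 0.83 CPM, the log2 fold change was -0.06 (SE 0.14) and the exact permutation p 0.83.

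*Bcl11b*, a zinc finger gene that acts after *Fezf2* in corticospinal neurons and is also strong in striatal projection neurons (chr12:107910403-108003602, minus strand), was lower at 50 ppm at an unadjusted p. It measured 273, 238, 239 and 259 CPM in control brains and 198, 206, 214 and 254 CPM in exposed brains. Of the exposed brains 3 were below every control, and 50 ppm replicate 4 was inside the control range. Means of 252 ± 17.1 and 218 ± 24.8 CPM gave a log2 fold change of -0.21 (SE 0.08), an unadjusted edgeR p of 0.0174 and an exact permutation p of 0.0857. The controls differed little for this gene, and the pair that was high in *Tbr1* and *Neurod6* was not the high pair here. The ratio of *Bcl11b* to *Fezf2* reads was 9.77 ± 2.21 at 0 ppm and 8.41 ± 1.24 at 50 ppm (exact permutation p = 0.314). These 3 ratios were chosen after the values had been seen, and each had a Benjamini-Hochberg adjusted p of 0.314 over the 3.

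The members took different directions once the hindbrain score was added to the fit or the 2 control libraries were left out. With the score as a covariate in edgeR's fit, 0 of 8 members were lower at an unadjusted p under 0.05, beside 1.83% of all genes, and 2 of 8 were higher, beside 2.12%. The log2 fold change of *Emx2* was not smaller in that fit, at -0.33, but its SE rose from 0.13 to 0.17 and its unadjusted edgeR p to 0.0701. *Bcl11b* went from -0.21 to -0.13, with a 95% interval of -0.34 to 0.08. The higher ones were *Neurod6*, with a log2 fold change of 0.36 (SE 0.12), an unadjusted edgeR p of 0.00629 and an adjusted p of 0.935, and *Fezf2*, with a log2 fold change of 0.36 (SE 0.13) and an unadjusted edgeR p of 0.00986. Without 0 ppm replicates 1 and 2, *Emx2* (-0.34) and *Bcl11b* (-0.19) were lower at an unadjusted edgeR p under 0.05, 2 of 8 beside 2.04% of all genes. In the same fit *Neurod6* (0.31) and *Fezf2* (0.25) were higher, 2 of 8 beside 2.24%. The controls left out were the highest controls in *Neurod6*, *Fezf2*, *Tbr1*, *Lhx2* and *Emx1*. For these genes a rise of the fold change was therefore fixed by the choice of libraries. *Eomes* had a log2 fold change of -0.47 with the covariate and -0.26 without those controls, and its unadjusted edgeR p was 0.0842 and 0.0952. *Tbr1* turned from -0.24 to 0.14 and 0.10, and *Lhx2* from -0.13 to 0.05 and 0.03. The negative direction was thus kept in all 3 fits by *Emx2*, *Eomes* and *Bcl11b*, and not by *Lhx2*, *Tbr1*, *Neurod6* and *Fezf2*, while *Emx1* was positive in all 3 and larger in the last 2. This sorting only describes the fits. Dose and score were linked, so the covariate fit separates them only in part, and the controls left out were chosen after the values had been seen.

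**Figure D2:**
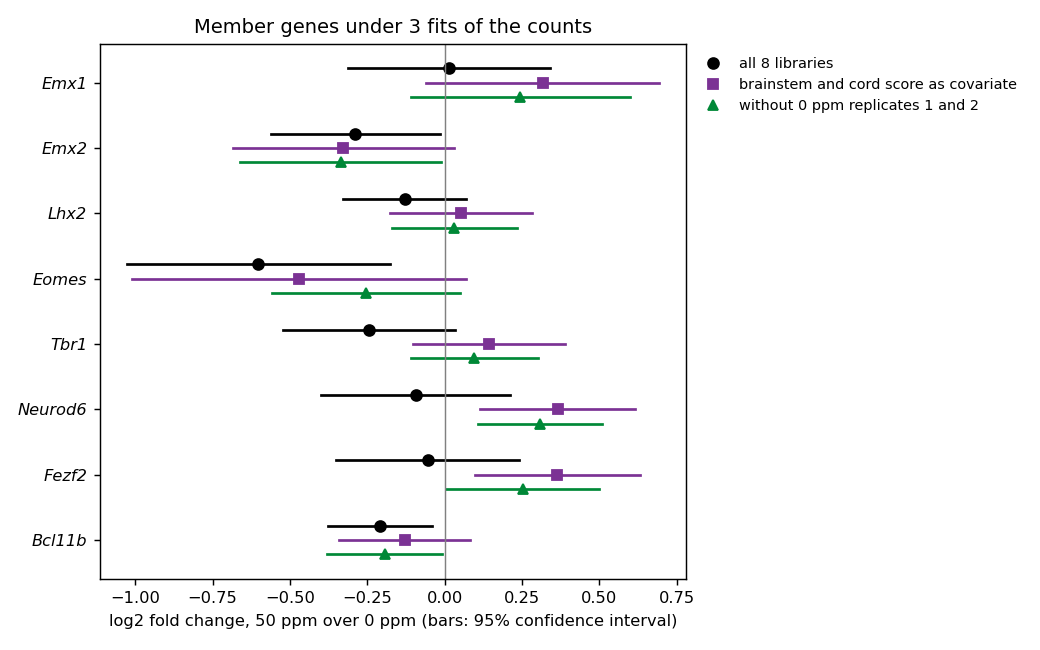
Log2 fold change of 50 ppm over 0 ppm (x axis) for each member in 3 edgeR fits, with bars for the 95% confidence interval: all 8 libraries (black circles), the brainstem and cord score as a covariate (purple squares) and without 0 ppm replicates 1 and 2 (green triangles). *Emx2*, *Eomes* and *Bcl11b* stay left of 0 in all 3, and *Neurod6* and *Fezf2* move from -0.09 and -0.06 to 0.36 each with the covariate.

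The members did not vary together to the same degree. As a description over the 8 libraries, which share depth and dose between genes, the Pearson correlation of log2 CPM with the mean of the other 7 members was 0.96 for *Tbr1*, 0.92 for *Lhx2* and 0.85 for *Neurod6*. It was 0.71 for *Emx1*, 0.63 for *Fezf2* and 0.60 for *Eomes*, and lowest for *Bcl11b* at 0.39 and *Emx2* at 0.34. Of 11778 other genes with a mean of at least 5 CPM, those most like the members' mean z-score over the 8 libraries were *D630045J12Rik* (r 0.97), *Gtf2h1* (0.97), *Prpf6* (0.95), *BC005537* (0.94) and *Zdhhc16* (0.94). Their log2 fold changes between doses lay between -0.05 and -0.09. As the highest of 11778 correlations over only 8 libraries, such values can arise by chance, and a link to the members was not tested.

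**Figure D3:**
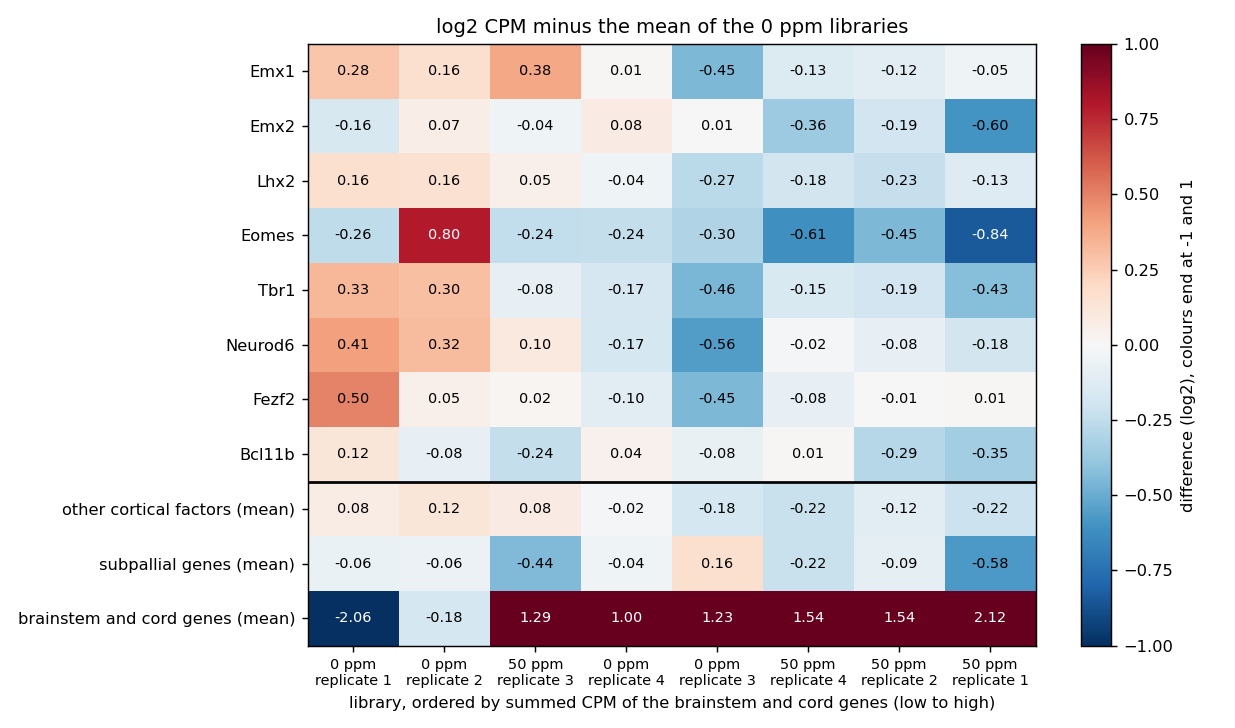
Log2 CPM of each member (rows) in each newborn brain (columns) minus the mean of the 4 control brains, with 3 gene lists as means under the line, and columns ordered from the lowest to the highest summed CPM of brainstem and cord genes. Red is above the control mean and blue below, with colors ending at -1 and 1, and 0 ppm replicates 1 and 2 at the left are red in most pallial rows, with *Tbr1* at 0.33 and 0.30 above.

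Other transcription factors of pallial progenitors and cortical neurons were taken as a list of 26, of which 24 were tested, while *Neurod1* and *Pou3f3* were listed at 0 in all libraries. So was *Tubb3*, a gene of every neuron, and such zeros are not read as absence. None of the 24 passed the adjusted p of edgeR or DESeq2, and the median log2 fold change was -0.06. At an unadjusted edgeR p under 0.05, 2 were lower and 0 higher, beside 1.44% and 2.31% of all genes. *Neurog2*, the proneural gene upstream of *Eomes*, measured 4.49 ± 0.32 and 2.83 ± 1.51 CPM (log2 fold change -0.65, SE 0.28), with 50 ppm replicate 4 at 0.88 CPM. *Pou3f1*, a POU-domain gene of cortical neurons, had a log2 fold change of -0.19 (SE 0.11) and did not pass that p.

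Genes of cortical neurons that do not encode transcription factors were counted in the same way. All genes tested had 1.44% lower and 2.31% higher at an unadjusted edgeR p under 0.05. Of 8 genes of cortical projection, subplate and migrating neurons, 1 was lower and 0 higher at that p, with a median of -0.05. The one was *Cplx3*, a complexin of subplate neurons, at 1.19 ± 0.59 and 0.612 ± 0.143 CPM, and next by p were *Sstr2*, a somatostatin receptor (log2 fold change -0.25), and *Nxph4*, a neurexophilin of the subplate (0.22). Of 4 Cajal-Retzius genes, which belong to the earliest neurons at the cortical surface, 0 were lower and 1 higher, *Ndnf* (0.26), while *Trp73* stood at -0.21 and *Reln* at -0.07.

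The subpallium lies below the pallium and makes GABA neurons of the cortex and striatum. Of 14 such genes, 7 were lower and 0 higher at an unadjusted edgeR p under 0.05, beside 1.44% and 2.31% of all genes. The median log2 fold change was -0.38. In 5 of 14 every exposed brain was below every control, against 0 of 8 members and 0.904% of all genes. *Dlx1*, a homeobox gene of GABA neuron progenitors, measured 89.7 ± 3.64 CPM at 0 ppm and 67.1 ± 8.51 CPM at 50 ppm (log2 fold change -0.42, SE 0.08, edgeR adjusted p = 0.232). *Sp9*, a zinc finger gene of the same lineage, was at -0.40. None of the 14 passed the adjusted p of edgeR, and DESeq2 called 2. The paper, which used DESeq2, lists *Dlx1* and *Sp9* among its differentially expressed genes, both lower at 50 ppm. The difference between the 14 subpallial genes and the members was not tested.

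Genes of the striatum, where *Bcl11b* is also strong, and of the thalamus and midbrain were counted in the same way. A link of these genes to the level of *Bcl11b* was not tested. Of 12 striatal genes 2 were lower and 1 higher at an unadjusted edgeR p under 0.05, beside 1.44% and 2.31% of all genes. Their median was -0.12. *Drd1*, the dopamine receptor of direct-pathway neurons, was at -0.35, *Rarb*, a retinoic acid receptor, at -0.30, and *Ebf1*, a helix-loop-helix factor, at 0.42. Of 8 thalamic and midbrain genes 4 were lower and 0 higher, with a median of -0.28, and among them were the homeobox genes *Barhl2* (-0.56) and *Lhx9* (-0.31).

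Markers of other cell types were set beside these lists. Of 4 neuronal markers 3 were tested and 0 passed an unadjusted edgeR p of 0.05, and their summed level was 1694 to 1983 CPM at 0 ppm and 1830 to 2021 CPM at 50 ppm. Of 4 astrocyte genes 2 were higher at that p, beside 2.31% of all genes, with sums of 462 to 602 and 566 to 670 CPM. Of 3 microglial genes 3 were higher, with sums of 53.5 to 64.9 and 61.8 to 78.2 CPM. Oligodendrocyte, endothelial, choroid plexus, meningeal, blood, muscle, olfactory bulb and olfactory epithelium genes had 0 at that p in either direction. These lists hold only 3 or 4 genes each, and that of oligodendrocytes (*Olig2*, *Sox10* and *Pdgfra*) holds lineage genes and no myelin gene, so they do not speak for other genes of these cells. The part of these cell types in the members' levels was not tested.

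**Figure D4:**
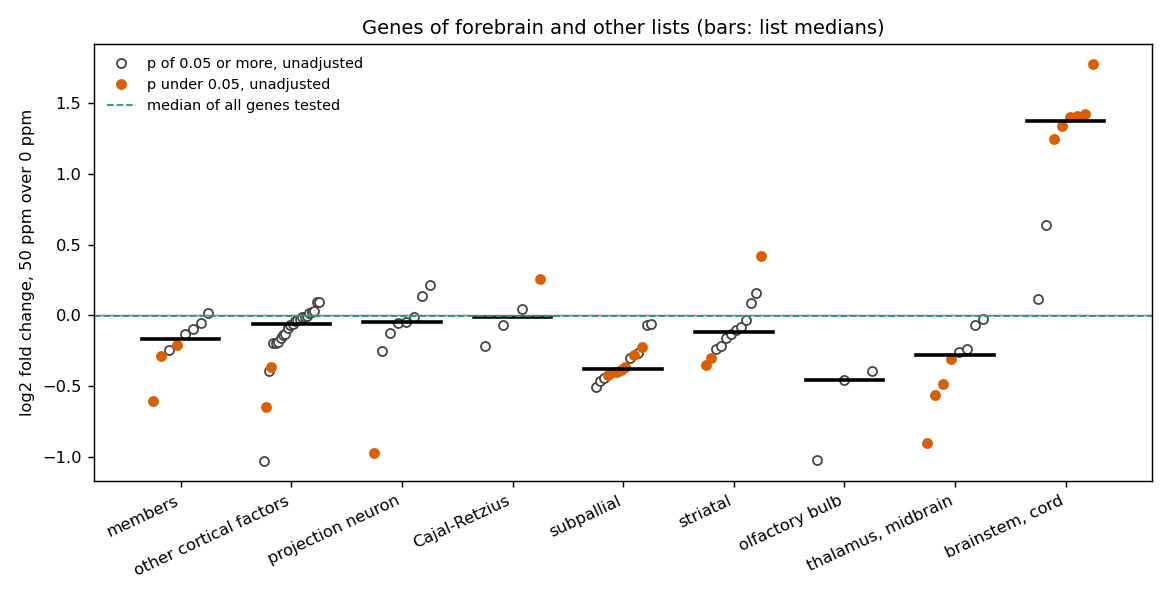
Log2 fold change of 50 ppm over 0 ppm (y axis) for the tested genes of 9 lists (x axis), one point a gene, filled where the unadjusted edgeR p is under 0.05, with bars for list medians and a dashed line for the median of all genes tested. Members have a median of -0.17, other cortical factors -0.06, subpallial genes -0.38 and brainstem and cord genes 1.37.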

How the data were processed

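The authors trimmed the first bases of single-end reads from strand-specific libraries, aligned them with STAR and counted them with htseq-count; versions and strand setting are not given in the sources used here. The deposited values are raw counts per gene, without normalization. The alignment to C57BL/6J (GRCm38) was used. The table of the CAST/EiJ alignment was not used here, since no table at hand ties its identifiers to the members.

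Of 49585 identifiers, 49326 were named from GENCODE M21. A gene was left out if over 2/3 of libraries held no read of it, as the study's methods word their filter. The gene set the study tested was not rebuilt, and adjusted p-values depend on the set. edgeR 4.0.16 (R 4.3.3; TMM, glmQLFit, glmQLFTest) was fitted to 23113 genes with dose as the only term, p-values were Benjamini-Hochberg adjusted over all of them, and the standard error was the absolute log2 fold change over the square root of F. Unadjusted p of single genes are from this fit. The code was tested on simulated data. Single members were also tested by exact two-sided permutation of log2 CPM (prior count 2) over 70 labellings. DESeq2 1.42.0, size factors, other filters, a robust fit, a covariate and leaving out libraries were alternatives. Pups came from separate litters, and no 2 libraries of a dose had counts equal within sampling noise.

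The members and lists were chosen with earlier results of these data known. Named beside members were the 3 genes of each forebrain and hindbrain list with the smallest p, the 5 genes most correlated with the members, and genes listed at 0; some single genes are not reported here. Promoter sequences are from RefSeq (GRCm38.p6). Figures were drawn with matplotlib 3.10.9.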

Additional observations from a re-analysis of the deposited data

Results flagged for a closer look

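In 3 genes a single brain stood apart from the other 3 of its dose by Dixon's criterion for 4 samples, which chance meets in about 1 of 20 groups. Over the members 16 groups were examined. Both doses of each gene named by smallest p beside the members were examined as well, so the groups in all were more than 16. *Eomes* was 35.8 CPM in 0 ppm replicate 2, and the gap to the next control was 0.959 of the range of the controls. *Emx1* was 15.6 CPM in 50 ppm replicate 3, with a gap of 0.856 of the range of the exposed brains. Among genes named beside the members, *Lbx1* was 14.1 CPM in 50 ppm replicate 1, with a gap of 0.910 of the range, and this brain also had the highest summed level of brainstem and cord genes, at 107 CPM.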

How the results depend on the processing

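No member passed an adjusted p of 0.05 under any of the 15 alternatives run. The number of members lower at an unadjusted p under 0.05 was 3 and was 0 with the brainstem and cord score as a covariate, where *Emx2* was -0.33 (as reported -0.29) with a larger SE. With single libraries left out it ranged from 1 (without 0 ppm replicate 2 or 50 ppm replicate 1) to 5 (without 0 ppm replicate 3). The share of all genes at that p in these fits is not given here, so the counts do not set the members apart from other genes. Without 0 ppm replicate 2, *Bcl11b* was the one left, and without 50 ppm replicate 1, *Eomes*. *Emx2*, *Eomes* and *Bcl11b* kept a negative sign in all 15. Signs turned for *Emx1* without 0 ppm replicate 3 or 50 ppm replicate 3, at -0.12 each (range over single libraries left out -0.12 to 0.11). They turned for *Neurod6* without 0 ppm replicate 1 (0.051) or replicate 2 (0.0071; range -0.25 to 0.051) and for *Fezf2* without 0 ppm replicate 1 (0.14; range -0.19 to 0.14). With the covariate they turned for *Lhx2* (0.053), *Tbr1* (0.14), *Neurod6* (0.36) and *Fezf2* (0.36), and without both 0 ppm replicates 1 and 2, an alternative chosen after seeing the data, for *Lhx2* (0.032), *Tbr1* (0.10), *Neurod6* (0.31) and *Fezf2* (0.25). Why the covariate turned them was not tested beyond these fits. For *Eomes* the robust fit gave an unadjusted p of 0.0830 in edgeR. Subpallial genes called went from 0 to 2 with DESeq2 and 1 with no filter on low counts, and brainstem and cord genes from 0 to 2 with no filter and to between 0 and 1 with single libraries left out. The counts of the CAST/EiJ alignment were not run. No paired analysis was possible because replicate numbers follow the order of the sample records and do not tie pups of the 2 doses together. With 4 brains a dose, the 95% intervals of the members span 0.34 to 0.85 on the log2 scale.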
